A study of Rattus norvegicus with 12 samples.

Results

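DNA methylation writers, erasers and readers were followed in the prefrontal cortex of rats exposed to oxycodone before or after birth. The set was chosen by gene symbol as Dnmt1, Dnmt3a, Dnmt3b, Tet1, Tet2, Tet3, Mbd1, Mbd2 and Mbd3, and all 9 are among the 22431 genes of the deposited table. RNA was taken from wild-type offspring in early adolescence, with 1 library per animal. Saline controls, postnatal oxycodone (PNO) and in utero oxycodone (IUO) were represented by 4 animals each. Oxycodone, an opioid agonist, was given at 15 mg/kg by oral gavage before pregnancy, or after it until postnatal day 21, per the labels. The labels do not give the dosing days of each group, nor the sex of the animals. Littermates are present, since 2 dams per group gave 2 animals each, and no label ties an animal to its dam. Tests that treat the animals as independent may therefore give p-values that are too small.

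In mammals a methyl group is carried mainly on cytosines of CpG dinucleotides, and in neurons also outside CpG. DNMT3A and DNMT3B place new methyl groups, and DNMT1 copies them onto the new strand after replication. DNMT1 and DNMT3A are also present in neurons that no longer divide. TET1, TET2 and TET3 oxidise 5-methylcytosine to 5-hydroxymethylcytosine, a mark that is abundant in brain, and so begin its removal. MBD1 and MBD2 bind methylated CpG, whereas mammalian MBD3 binds it weakly. MBD2 and MBD3 are alternative subunits of NuRD, a complex that combines a chromatin remodeller with histone deacetylases.

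Dnmt1 and Dnmt3a carry the main difference described here, so the 250 bases before their RefSeq start (build GRCr8, 5′ to 3′ on the gene's strand) are printed, with capitals at each CG, the target of these enzymes. The Dnmt1 window is chr8:27762842-27763091 on the minus strand and the Dnmt3a window is chr6:32598352-32598601 on the plus strand.
Dnmt1: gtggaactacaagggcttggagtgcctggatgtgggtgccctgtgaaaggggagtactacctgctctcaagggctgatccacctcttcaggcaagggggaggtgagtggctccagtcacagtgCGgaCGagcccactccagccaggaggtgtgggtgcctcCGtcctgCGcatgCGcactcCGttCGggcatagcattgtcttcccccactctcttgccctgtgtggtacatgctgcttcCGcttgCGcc
Dnmt3a: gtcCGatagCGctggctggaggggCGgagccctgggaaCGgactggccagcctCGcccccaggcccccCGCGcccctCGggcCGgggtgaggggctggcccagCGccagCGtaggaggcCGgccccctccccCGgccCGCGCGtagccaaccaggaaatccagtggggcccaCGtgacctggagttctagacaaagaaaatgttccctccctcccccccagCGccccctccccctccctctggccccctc
CG reads the same on both strands. The Dnmt1 window held 9 CG, and 38.5% of the 33469 RefSeq windows of 250 bases held as many or more. The Dnmt3a window held 18, reached by 20.1% of windows, and the median over all windows was 5. Of the 9 genes, 8 had a window in the table. Tet2 had 38 CG, Mbd2 33, Mbd1 24 and Mbd3 17, while the several starts given for Tet1 and Tet3 ranged from 1 to 12 and from 3 to 22. No methylation was measured, so the CG counts describe sequence only.

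Total counts ran from 49227533 to 60672246 per library. Genes with a mean FPKM (fragments scaled to transcript length and library size) of at least 0.5 over the 12 libraries were tested, which kept 14170 genes and 7 of the 9 members, leaving out Dnmt3b and Tet1. Levels are given as CPM (counts scaled to library size with TMM factors), and differences as log2 fold changes with their standard error (SE) from the edgeR quasi-likelihood test, called at an adjusted p under 0.05 over all genes tested. Transcripts of cortical projection neurons were present in every library, and Slc17a7, the vesicular glutamate transporter of these cells, ran from 1340 to 2435 CPM. Olfactory bulb genes, 9 in all, were raised in PNO 1, PNO 3, PNO 4 and IUO 3, with mean log2 CPM of 3.47 to 4.19 against 0.91 to 1.59 in the other 8 libraries. Striatal genes, 13 in all, were raised in saline 2, PNO 2, IUO 1 and IUO 2, with mean log2 CPM of 4.37 to 6.26 against 3.25 to 3.49. Libraries also differed in the balance of long and short transcripts, with the length of a gene divided by its number of listed transcripts. The measure was the median log2 deviation of 482 genes of at least 6000 bases minus that of 5987 genes under 1500 bases. This measure was 0.21 in PNO 2 and -0.28 in IUO 4, and lay between -0.14 and 0.14 in the other 10. Y-linked genes had a mean log2 CPM of 2.26 to 2.64 in saline 1, saline 3, PNO 2, PNO 3 and IUO 3. It was -2.94 to -1.41 in the remaining libraries, so each group held libraries of both kinds, and IUO 3 was the only IUO library with high Y-linked levels. In whole tissue, fewer cells of a type and less RNA per cell cannot be told apart.

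Per transcript length, the NuRD subunits Mbd3 and Mbd2 were the most abundant members, and Dnmt3b and Tet1 the least. Mean FPKM over the 12 libraries was 59.3 for Mbd3, 18.1 for Mbd2, 5.76 for Dnmt1, 2.71 for Mbd1, 1.34 for Dnmt3a, 1.15 for Tet2, 0.54 for Tet3, 0.22 for Dnmt3b and 0.10 for Tet1. Ranges over libraries did not overlap between Mbd3 (50.8 to 75.8 FPKM) and Mbd2 (16.2 to 20.01), nor between Mbd2 and Dnmt1 (4.53 to 6.80) or Dnmt1 and Mbd1 (1.20 to 3.38). From Mbd1 down each gene overlapped the next, so Dnmt3a (0.58 to 1.95 FPKM) and Tet2 (0.82 to 1.32) were not separated by level, nor were Dnmt3b (0.16 to 0.32) and Tet1 (0.04 to 0.20). The length behind a deposited FPKM grew with the number of transcripts listed for a gene, from a median of 2383 bases for genes with 1 to 4457 bases for genes with 4. It was 9379 bases for Mbd1, which lists 5 transcripts, and 6393 bases for Dnmt1, which lists 1. Multiplied by the number of listed transcripts, Mbd1 reached 13.6 and Dnmt1 stayed at 5.76, which turns the order of this pair. The medians grew less than in proportion to the number of transcripts, so this factor may be too large and the order is not settled.

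**Figure D1:**
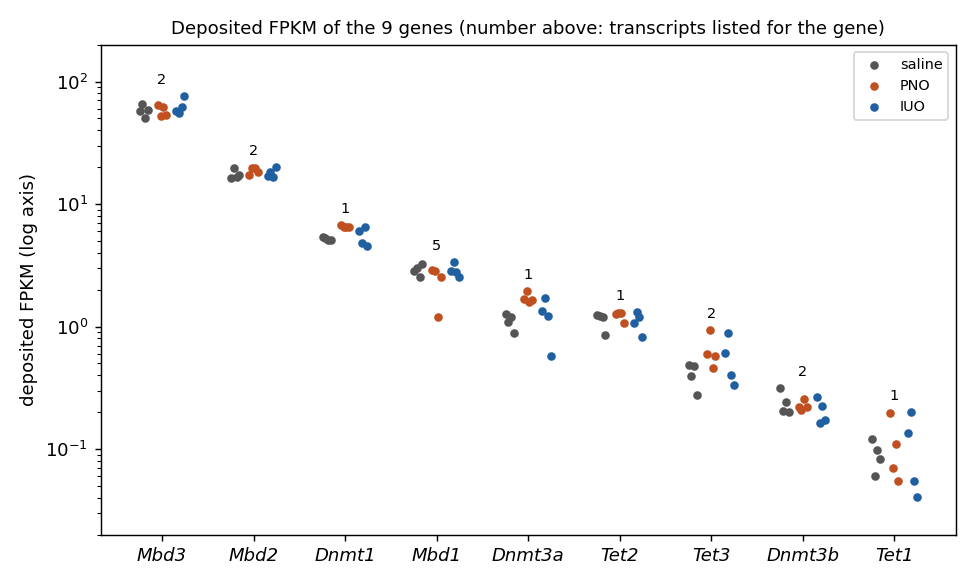
Deposited FPKM of the 9 genes on a log axis, 1 point per library, coloured by group, with genes ordered by their mean and the number of listed transcripts above each. Mbd3 lay between 50.8 and 75.8 FPKM in all 12 libraries and Tet1 between 0.04 and 0.20.

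The comparison of PNO with saline asked what exposure after birth left in the adolescent cortex. The maintenance methyltransferase Dnmt1 and the de novo methyltransferase Dnmt3a each measured more in every PNO library than in any saline library. Their log2 fold changes were 0.32 (SE 0.10) and 0.60 (SE 0.25). Neither passed over all genes tested (edgeR adjusted p = 0.355 and 0.421). The readers Mbd2 and Mbd3 and the dioxygenase Tet2 differed by at most 0.11 on the log2 scale.

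Dnmt1 (ENSRNOG00000039859), at 19440611 to 19486659 on chromosome 8, minus strand, in the deposited table, whose build is not given in the sources used here, had 1524 to 2521 counts per library. It measured 34.0, 33.3, 33.6 and 33.8 CPM in saline 1 to 4, and 42.5, 42.0, 41.9 and 41.5 CPM in PNO 1 to 4. The IUO values, in the same order, were 38.1, 31.0, 41.5 and 29.3 CPM. The saline and PNO values formed narrow bands that did not overlap, while the IUO values ran from below the saline band into the PNO band. The within-group CV was 0.90% in saline and 1.03% in PNO, below the counting error of 2.25% and 2.01% expected from the counts alone, and 16.5% in IUO. The mean was 42.0 ± 0.43 CPM in PNO and 33.7 ± 0.30 CPM in saline (SD, n = 4 each), 1.246-fold with an unadjusted 95% interval of 1.07 to 1.45. The edgeR unadjusted p was 0.00840 and the adjusted p 0.355, and over the alternatives the adjusted p ran from 0.0888 to 1.00.

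**Figure D2:**
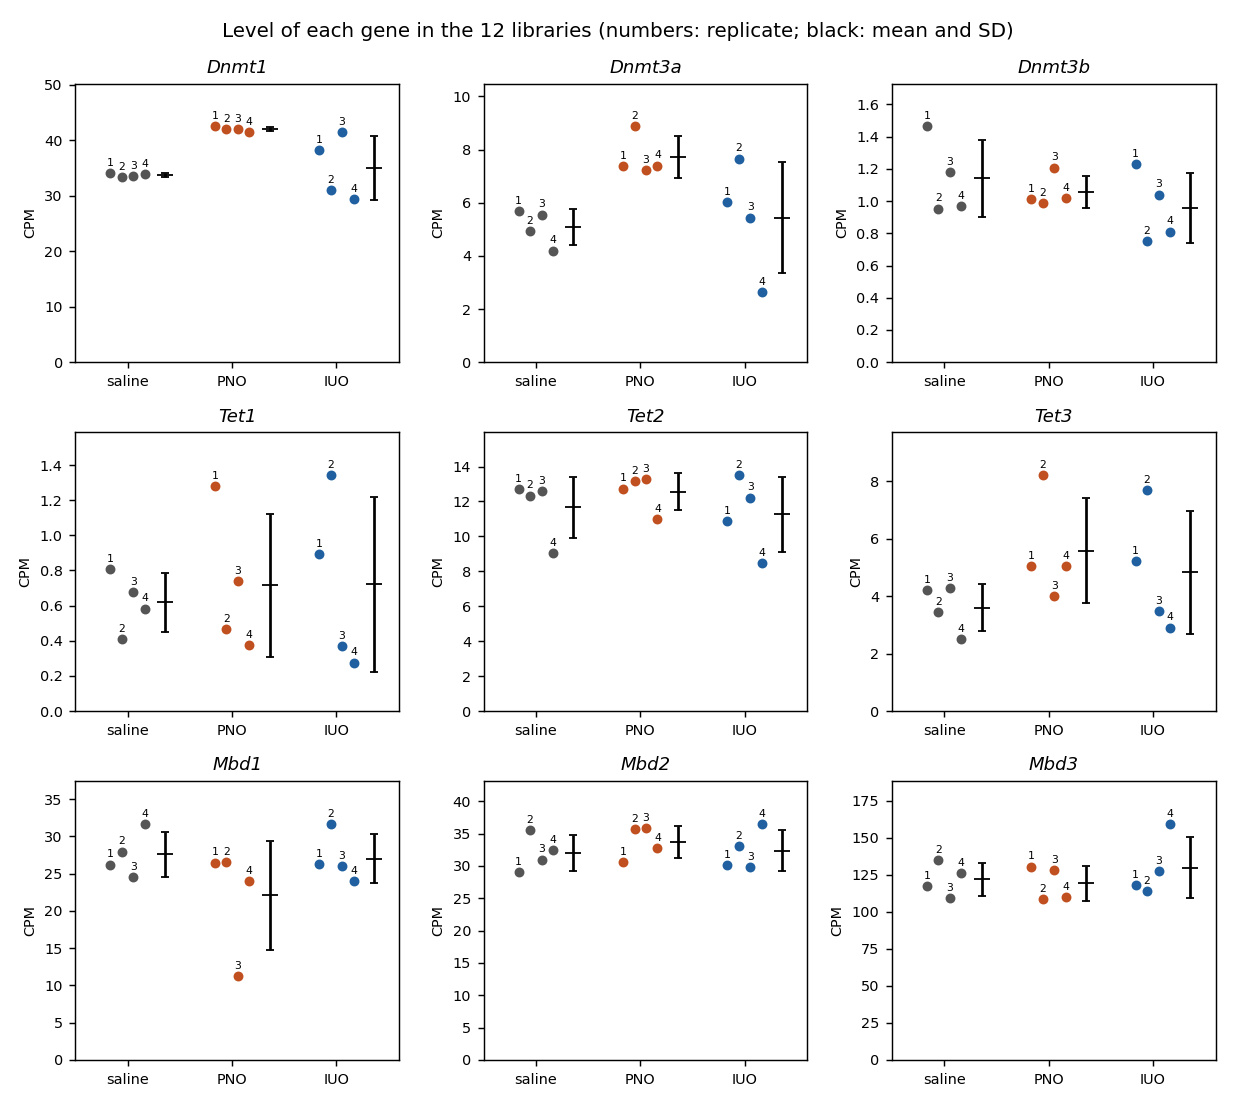
CPM of the 9 genes in each library, with the replicate number beside each point, and the mean and SD of each group in black. Dnmt1 lay at 33.3 to 34.0 CPM in saline and at 41.5 to 42.5 CPM in PNO, and Mbd1 was at 11.3 CPM in PNO 3.

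The 4 libraries with raised olfactory bulb genes had 41.5 to 42.5 CPM of Dnmt1, IUO 3 among them, and PNO 2, without raised bulb genes, had 42.0 CPM. All 9 bulb genes lay above saline on average in PNO, their summed level ran from 41.9 to 50.4 CPM in saline and from 52.7 to 245 CPM in PNO, and no marker was at 0 in all libraries. Markers of neuroblasts and immature neurons had a mean log2 CPM of 3.15 to 3.54 in saline and 3.75 to 4.28 in PNO, with PNO 2 at 3.75, and of 4.34 in IUO 3 and 2.96 in IUO 4. Of these 8 markers, 7 lay above saline on average in PNO, where 51.2% of all genes did. An unadjusted p under 0.05 was reached by 6, all higher, where 6.82% of all genes were. PNO lay above saline without overlap in 3, as in 5.17% of all genes. The summed level of the 8 ran from 149.7 to 162.8 CPM in saline, from 157 to 245.5 CPM in PNO and from 121.9 to 269.8 CPM in IUO. Interneuron markers had a mean log2 CPM of 5.26 to 5.57 in saline and 5.59 to 5.91 in PNO, with 4 of the 6 tested above saline on average. At an unadjusted p under 0.05, 3 were higher and 1 lower, where 6.82% and 4.22% of all genes were. In IUO all 6 lay above saline on average, where 56.4% of all genes did. The part of neuroblast and interneuron transcripts in the Dnmt1 values was not tested. Every PNO library had raised bulb or striatal genes, and of the saline libraries only saline 2 did, in striatal genes. A fit with both means as covariates therefore cannot cleanly separate exposure from tissue content. With bulb and striatal means as covariates the Dnmt1 log2 fold change was 0.051 (SE 0.14). Without the 4 libraries with raised bulb genes it was 0.30 (SE 0.17), with PNO 2 as the lone PNO library, assumed to vary like the other groups. With a trend on transcript length removed from each library it was 0.21 (SE 0.10).

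Dnmt3a (ENSRNOG00000026649), at 26822609 to 26896687 on chromosome 6, plus strand, had 143 to 512 counts per library. It measured 5.68, 4.92, 5.55 and 4.20 CPM in saline 1 to 4, and 7.39, 8.88, 7.23 and 7.39 CPM in PNO 1 to 4. In IUO 1 to 4 it measured 6.01, 7.65, 5.44 and 2.63 CPM. Every PNO value lay above every saline value, PNO 2 stood above the other 3, and the IUO values spanned both groups, with IUO 4 the lowest of all 12. The mean was 7.72 ± 0.78 CPM in PNO and 5.09 ± 0.68 CPM in saline (SD, n = 4 each), 1.52-fold with an unadjusted 95% interval of 1.04 to 2.21. The edgeR unadjusted p was 0.0314 and the adjusted p 0.421, and the adjusted p ran from 0.101 to 1.00 over the alternatives. Dnmt3a was highest in PNO 2, which also had the most long transcripts relative to short ones, and lowest in IUO 4, which had the fewest. The log2 fold change was 0.51 (SE 0.22) with the length trend removed and -0.0014 (SE 0.32) with the bulb and striatal covariates. These covariates do not separate cleanly from exposure in PNO. Without the 4 libraries with raised striatal genes the log2 fold change was 0.51 (SE 0.26). It was 0.79 (SE 0.44) without the 4 libraries with raised bulb genes, which leaves PNO 2 as the lone PNO library.

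**Figure D3:**
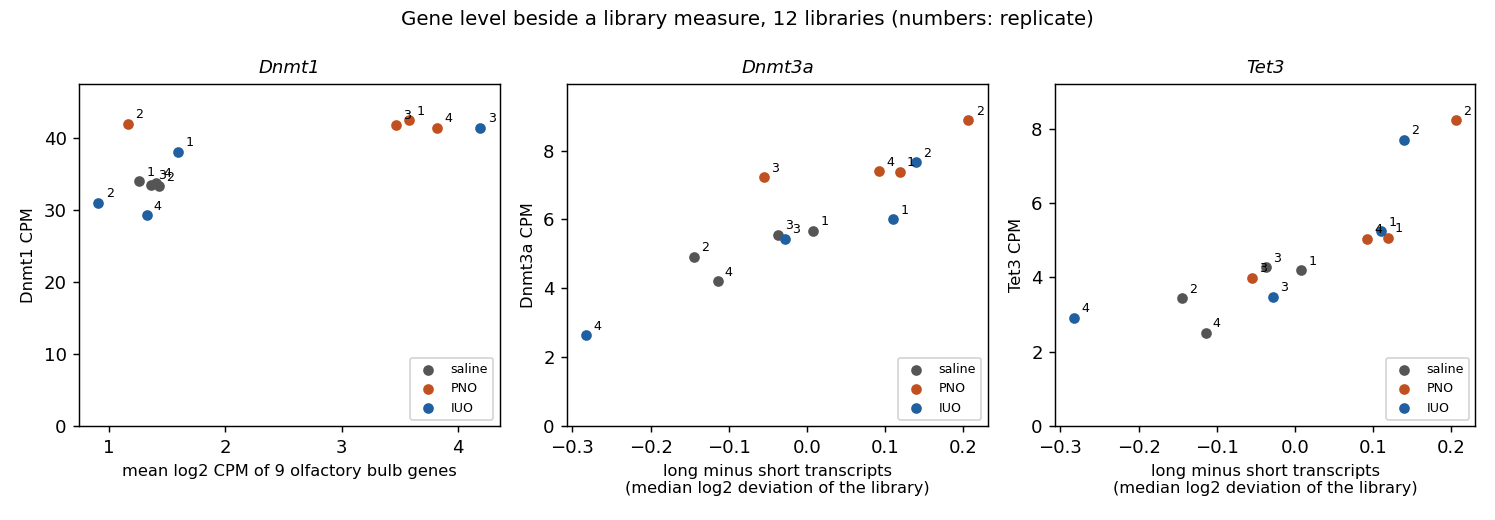
CPM of Dnmt1 against the mean log2 CPM of 9 olfactory bulb genes, and of Dnmt3a and Tet3 against the long minus short transcript measure, 1 point per library with its replicate number. Dnmt3a was 2.63 CPM in IUO 4, where that measure was -0.28, and 8.88 CPM in PNO 2, where it was 0.21.

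Dnmt3b (ENSRNOG00000010625), at 142130592 to 142169124 on chromosome 3, plus strand, was too low for the filter, with 37 to 89 counts per library. It measured 1.14 ± 0.24 CPM in saline, 1.06 ± 0.10 CPM in PNO and 0.96 ± 0.22 CPM in IUO (SD, n = 4 each). The groups overlapped, and counting error alone was 12.4% to 13.98%. Without the filter the edgeR log2 fold change was -0.13 (SE 0.26) in PNO and -0.27 (SE 0.26) in IUO against saline.

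Among the TET dioxygenases, Tet3 differed most between libraries of those tested, and no group was set apart. Tet3 (ENSRNOG00000011387), at 115871265 to 115964193 on chromosome 4, minus strand, measured 4.20, 3.44, 4.27 and 2.51 CPM in saline 1 to 4, and 5.06, 8.22, 3.99 and 5.04 CPM in PNO 1 to 4. It reached 5.23, 7.70, 3.47 and 2.91 CPM in IUO 1 to 4. PNO 2 and IUO 2 stood above the rest, and PNO 3 lay within the saline range, so the groups overlapped. The log2 fold change in PNO was 0.63 (SE 0.31), with an unadjusted 95% interval of -0.04 to 1.30 and an edgeR adjusted p of 0.480. PNO 2 and IUO 2 had the highest striatal means and the highest long minus short measures of all 12 libraries. Without PNO 2 the log2 fold change was 0.38 (SE 0.31), and without the 4 libraries with raised striatal genes it was 0.36 (SE 0.25). It was 0.75 (SE 0.33) without PNO 3 and 1.17 (SE 0.44) without the 4 libraries with raised bulb genes, which leaves PNO 2 as the lone PNO library.

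Tet2 (ENSRNOG00000023579), at 221988645 to 222072534 on chromosome 2, minus strand, measured 12.7, 12.3, 12.6 and 9.04 CPM in saline 1 to 4, and 12.7, 13.2, 13.3 and 11.01 CPM in PNO 1 to 4. In IUO 1 to 4 it measured 10.9, 13.5, 12.2 and 8.45 CPM. The lowest values were those of IUO 4 and saline 4, and the groups overlapped. Against saline, PNO had a log2 fold change of 0.11 (SE 0.16), with an unadjusted 95% interval of -0.23 to 0.45 and an edgeR adjusted p of 0.823. Its sign turned without saline 4, to -0.012, with the length trend removed, to -0.016, and with the bulb and striatal covariates, to -0.21.

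Tet1 (ENSRNOG00000000277), at 25768120 to 25833052 on chromosome 20, plus strand, was below the filter at 15 to 76 counts per library. It measured 0.81, 0.41, 0.68 and 0.58 CPM in saline 1 to 4, and 1.28, 0.47, 0.74 and 0.37 CPM in PNO 1 to 4. IUO 1 to 4 gave 0.89, 1.34, 0.37 and 0.28 CPM. PNO 1 and IUO 2 stood above the others, and the 4.87-fold range over libraries was the widest of the 9 genes. Without the filter the edgeR log2 fold change was 0.19 (SE 0.52) in each exposed group against saline, too imprecise to show a change of this size.

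Among the readers, Mbd2 varied little between libraries, Mbd3 had a 1.47-fold range with IUO 4 highest, and Mbd1 was set apart by 1 library. Mbd1 (ENSRNOG00000024104), at 67869992 to 67886554 on chromosome 18, plus strand, measured 26.2, 28.0, 24.6 and 31.6 CPM in saline 1 to 4, and 26.5, 26.6, 11.3 and 23.96 CPM in PNO 1 to 4. In IUO 1 to 4 it measured 26.3, 31.7, 25.9996 and 24.02 CPM. PNO 3 had 673 counts where the other 11 libraries had 1305 to 1792, and apart from it the 3 groups overlapped. The log2 fold change in PNO was -0.32 (SE 0.21, edgeR adjusted p = 0.592) and -0.11 (SE 0.12) without PNO 3. The cilia gene Cfap53, annotated from 67869855 to 67952318 on the same strand, overlaps Mbd1 throughout, so reads of the pair may have been split between them. Cfap53 had 1730 counts in PNO 3, within its range of 1080 to 2027, and the sum of both genes was lowest in PNO 3, at 2403 against 2656 to 3620 in the others.

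Mbd2 (ENSRNOG00000011853), at 64174002 to 64240794 on chromosome 18, plus strand, measured 29.0, 35.6, 31.0 and 32.5 CPM in saline 1 to 4, and 30.6, 35.7, 35.8 and 32.7 CPM in PNO 1 to 4. Levels in IUO 1 to 4 were 30.1, 33.1, 29.8 and 36.5 CPM. The groups overlapped almost fully, and the highest of the 12 values was 1.26 times the lowest, the narrowest range of the 9 genes. PNO differed from saline by a log2 fold change of 0.08 (SE 0.10), with an unadjusted 95% interval of -0.14 to 0.29 and an edgeR adjusted p of 0.793.

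Mbd3 (ENSRNOG00000028956), at 9313098 to 9320165 on chromosome 7, plus strand, measured 117, 135, 109 and 126 CPM in saline 1 to 4, and 130, 108, 128 and 110.0 CPM in PNO 1 to 4. In IUO 1 to 4 it measured 118, 114, 127 and 159 CPM. IUO 4, the library with the lowest Dnmt1, Dnmt3a, Tet1 and Tet2, had the highest Mbd3 and Mbd2. The log2 fold change in PNO was -0.03 (SE 0.11), with an unadjusted 95% interval of -0.28 to 0.21 and an edgeR adjusted p of 0.938. Mbd3 and Mbd2 have short transcripts in the table, at 2078 and 1804 bases over 2 listed transcripts each, whereas Tet2 is listed at 10218 bases.

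Of the 7 members tested in PNO, the fold change was above 1 in 5 and below 1 in 2, where 51.2% of all genes lay above 1. The median log2 fold change was 0.11 over the members and 0.0068 over all 14170 genes. By edgeR 0 of 7 passed, as did 0% of all genes, and DESeq2 called 0 of 7 and 117 genes in all. At an unadjusted p under 0.05 there were 2 of 7, Dnmt1 and Dnmt3a, where 11% of all genes reached it, 6.82% as higher and 4.22% as lower. In the same 2 genes, PNO lay above saline in every library, as it did in 5.17% of all genes tested, and 4.66% of all genes lay below saline in every library.

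**Figure D4:**
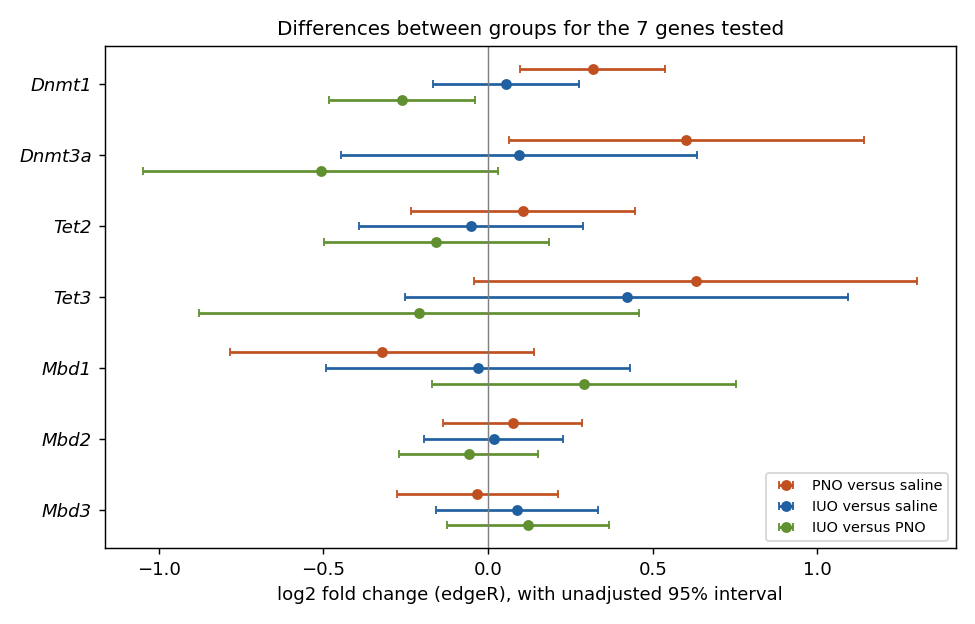
Log2 fold changes of the 7 tested members in the 3 comparisons, with unadjusted 95% intervals. For PNO against saline the intervals of Dnmt1 (0.10 to 0.54) and Dnmt3a (0.06 to 1.14) lay above 0, and 0 of 7 members passed after adjustment over all genes.

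The comparison of IUO with saline asked what exposure before birth left in the same tissue, and it shares its 4 saline libraries with the comparison above. No member was set apart from saline. Dnmt1 measured 35.0 ± 5.76 CPM in IUO and Dnmt3a 5.43 ± 2.09 CPM (SD, n = 4 each), with log2 fold changes of 0.06 (SE 0.10) and 0.09 (SE 0.25). Tet3 measured 4.83 ± 2.15 CPM against 3.60 ± 0.82 CPM in saline, a log2 fold change of 0.42 (SE 0.31). The other 4 members lay between -0.05 and 0.09 on the log2 scale. By edgeR 0 of 7 members passed (adjusted p = 0.998 for each), 0 of 7 reached an unadjusted p under 0.05 where 4.02% of all genes did (2.31% higher and 1.71% lower), and in 0 of 7 were the groups without overlap where 1.15% of genes lay above and 1.03% below saline. DESeq2 called 0 of 7 members and 11 genes in all. The median log2 fold change over the 7 was 0.06, with 5 above 0, beside 0.023 and 56.4% above 0 over all genes.

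Within IUO the CV was 68.9% for Tet1, 44.6% for Tet3 and 38.5% for Dnmt3a, and Dnmt1, at 16.5%, lay below Tet2 at 19.2%. Dnmt1 ran from 29.3 CPM in IUO 4 to 41.5 CPM in IUO 3, the IUO library with raised bulb genes. Dnmt3a ran from 2.63 CPM in IUO 4 to 7.65 CPM in IUO 2, the IUO library with the most striatal marker. Log2 CPM over all genes tested correlated at Pearson's r of 0.954 to 0.969 in the pairs that include IUO 4, and of 0.968 to 0.983 in the remaining IUO pairs. Without IUO 4 the log2 fold changes were 0.13 (SE 0.09) for Dnmt1, 0.32 (SE 0.16) for Dnmt3a and 0.60 (SE 0.30) for Tet3, with edgeR adjusted p of 0.659, 0.581 and 0.578. Without the 4 libraries with raised striatal genes Dnmt3a turned to -0.35 (SE 0.29) and Tet3 to -0.20 (SE 0.28). That fit leaves only IUO 3 and IUO 4 in IUO.

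Between the exposure windows, Dnmt1 and Dnmt3a measured less in IUO than in PNO on average. The log2 fold change was -0.26 (SE 0.10, edgeR adjusted p = 0.714) for Dnmt1 and -0.51 (SE 0.25, edgeR adjusted p = 0.714) for Dnmt3a. Dnmt1 in IUO 3 lay at 41.475 CPM and the lowest PNO library at 41.460 CPM, so the groups overlapped through this 1 library. The edgeR unadjusted p for Dnmt1, the lowest of the 7, was 0.0236 beside its adjusted p of 0.714. An unadjusted p under 0.05 was reached by 1 of 7 members and by 6.73% of all genes (3.67% higher and 3.06% lower), and in 0 of 7 were the groups without overlap, where 1.85% of genes lay above and 1.78% below PNO. By edgeR 0 of 7 members and 0% of all genes passed, and DESeq2 called 0 of 7 members and 8 genes in all. Of the 7, 2 had a log2 fold change above 0, where 50.8% of all genes did. Without IUO 4 the Dnmt3a difference was -0.28 (SE 0.17).

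Genes that work with these enzymes were read from 5 lists, in which 0 genes passed by edgeR in any comparison. Among other readers of methylated or unmethylated CpG, 9 of 11 lay above saline on average in PNO, where 51.2% of all genes did, and 9 of 11 in IUO, where 56.4% did. The median log2 fold change of the list was 0.25 in PNO and 0.08 in IUO. In PNO the unadjusted p was under 0.05 in 4 of the 11, all higher, where 6.82% of all genes were. Zbtb4, a zinc finger protein that binds methylated CpG, measured 94.8 ± 7.53 CPM in PNO and 79.7 ± 4.35 CPM in saline, and Zbtb38, of the same family, 33.2 ± 2.89 CPM and 27.6 ± 0.53 CPM. Kdm2a, a histone demethylase with a CXXC domain for unmethylated CpG, measured 61.4 ± 6.34 CPM and 47.4 ± 4.496 CPM, and in these 3 genes PNO lay above saline without overlap, as did 5.17% of all genes. Kmt2a, a histone methyltransferase with a CXXC domain, measured 18.9 ± 5.51 CPM and 12.9 ± 1.97 CPM, with overlap. In PNO the log2 fold changes of Kdm2a and Kmt2a were 0.37 and 0.55. With the bulb and striatal covariates, which do not separate cleanly from exposure in PNO, they were 0.14 and 0.34. Over all alternatives the lowest value was 0.18 for Zbtb4 and 0.20 for Zbtb38. Zbtb4 in IUO, at 90.0 ± 5.93 CPM, had a log2 fold change against saline of 0.17 (SE 0.08, edgeR adjusted p = 0.998).

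**Figure D5:**
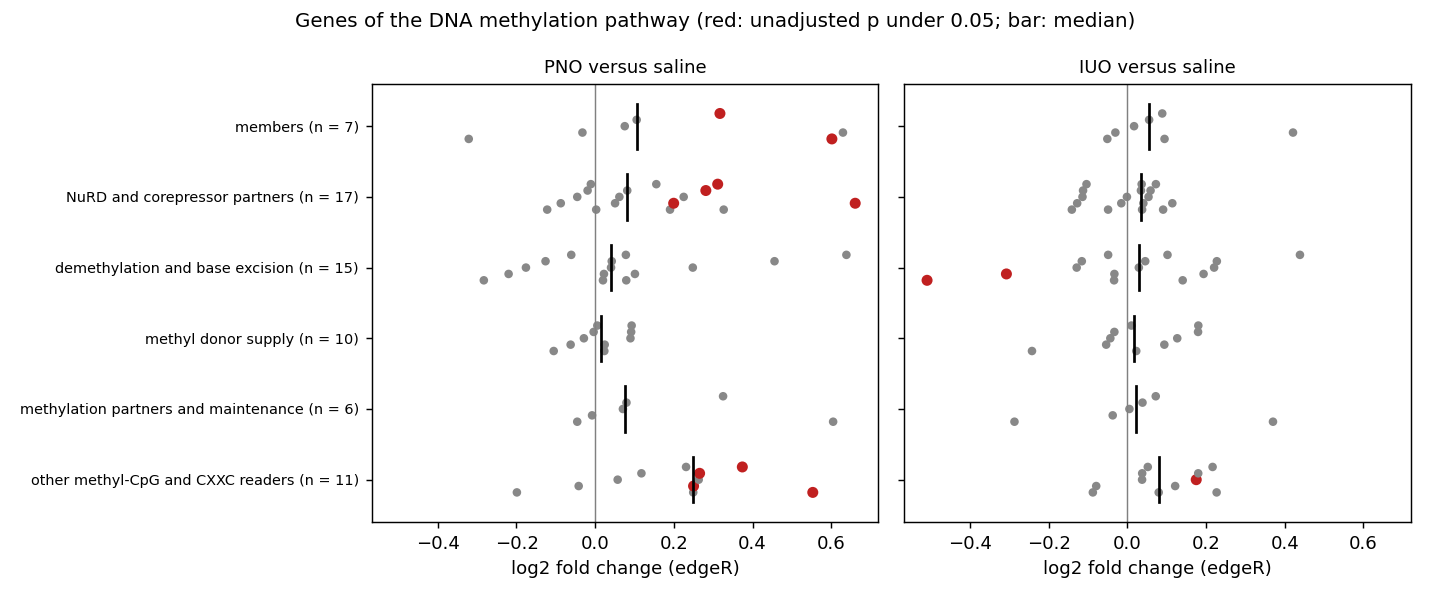
Log2 fold changes of the members and of 5 lists of partner genes in PNO and in IUO against saline, 1 point per gene, red where the unadjusted p was under 0.05, with the median of each list as a bar. The median of the other CpG readers was 0.25 in PNO and 0.08 in IUO, and 0 genes passed after adjustment.

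Of 17 NuRD and corepressor genes, 12 lay above saline on average in PNO, where 51.2% of all genes did and the median log2 fold change of the list was 0.08, and 4 reached an unadjusted p under 0.05, all higher, where 6.82% of all genes did. Chd4, the remodelling ATPase of NuRD, measured 204 ± 8.25 CPM in PNO and 178 ± 4.79 CPM in saline, and its relative Chd3 682 ± 46.1 CPM and 561 ± 43.2 CPM. Chd4 in IUO, at 193 ± 3.66 CPM, also lay above every saline library, as did 1.15% of all genes. Its log2 fold change there was 0.11 (SE 0.06, edgeR adjusted p = 0.998). Gatad2b, a NuRD scaffold subunit that joins MBD2 or MBD3 to CHD4, measured 5.71 ± 1.37 CPM and 3.61 ± 0.84 CPM, and in these 3 genes PNO and saline did not overlap, where 5.17% of all genes lay above saline without overlap. Ncor1, a corepressor that recruits HDAC3, measured 87.8 ± 15.7 CPM and 70.7 ± 2.59 CPM. The edgeR adjusted p of these 4 NuRD and corepressor genes lay between 0.337 and 0.412. With the bulb and striatal covariates the PNO log2 fold change of Chd3 went from 0.28 to 0.059. Ncor1 went from 0.31 to 0.24, Gatad2b from 0.66 to 0.54 and Chd4 from 0.20 to 0.24. Chd3 in IUO, at 522 ± 84.6 CPM, lay below every PNO library, as did 1.78% of all genes. Its log2 fold change against PNO was -0.39 (SE 0.11, edgeR adjusted p = 0.714).

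In the other 3 lists few genes stood out. Of 15 genes of active demethylation and base excision, 10 lay above saline on average in PNO and 8 in IUO, where 51.2% and 56.4% of all genes did. Gadd45b, an activity-induced gene linked to demethylation, measured 10.4 ± 3.10 CPM in IUO and 14.9 ± 2.49 CPM in saline, and the isocitrate dehydrogenase Idh1, whose product feeds the TET enzymes, 42.9 ± 4.18 CPM and 53.1 ± 10.4 CPM. In both genes IUO overlapped saline (edgeR adjusted p = 0.998 for each). Of 10 methyl donor genes 6 lay above saline on average in each exposed group. An unadjusted p under 0.05 against saline was reached by 0 of them, where 11% of all genes reached it in PNO and 4.02% in IUO. Shmt2, the mitochondrial serine hydroxymethyltransferase of folate metabolism, measured 36.2 ± 1.14 CPM in IUO and 32 ± 5.16 CPM in saline, with overlap (edgeR adjusted p = 0.998). Of the 6 partners of maintenance methylation tested, 0 reached an unadjusted p under 0.05 against saline, beside the same shares of all genes. Cdca7, an activator of the remodeller HELLS, measured 5.99 ± 0.88 CPM in PNO and 3.94 ± 1.66 CPM in saline, with overlap (edgeR adjusted p = 0.612). Cycling cell markers overlapped between the groups, with a summed level of 51.9 to 70.1 CPM in saline, 53.4 to 63.2 CPM in PNO and 49.99 to 59.6 CPM in IUO.

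The genes whose log2 CPM followed each member most closely over the 12 libraries were taken among all 14170 tested. Tanc1 (Pearson's r = 0.97) and Sec24b (r = 0.96) were most like Dnmt3a, and Fgd3 (r = 0.93) and Grip1 (r = 0.92) most like Dnmt1. For Tet3 they were Zswim6 and Mtmr9 (r = 0.95 for each), for Mbd3 Tada3 (r = 0.94) and Dtnbp1 (r = 0.93), and for Mbd2 Arrdc2 (r = 0.90) and a gene listed by identifier only. For Mbd1 they were Cd2ap and Zfp579 (r = 0.94 for each), and for Tet2 a pair of genes listed by identifier only (r = 0.94 and 0.91). These values describe likeness over the same libraries, which share their depth and their balance of transcript lengths, and no member was among them.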

How the data were processed

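The deposited table gives whole-number counts and FPKM per gene and library, per the file headers. HISAT2 and StringTie are named in the submitters' processing notes, and the sources used here give no versions, genome build, annotation or strand setting of the counting. The libraries were poly(A) selected and stranded, per the labels' protocols. Depth was 49227533 to 60672246 counts per library, and counting error was about 1.2% to 18.3% per member.

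Counts were scaled with TMM and fitted with the edgeR quasi-likelihood test in 1 model of 12 libraries and 3 groups, keeping mean FPKM values of 0.5 or more. Benjamini-Hochberg adjustment covered all 14170 genes. Tests were two-sided. On simulated data of 14170 genes for PNO against saline, 40% of genes changed 1.5-fold and 92% of those changed 2-fold were recovered, 100 genes each, with 6 false calls in all. The changed genes were drawn above a minimum mean CPM, which Tet3 does not reach. Their spread followed a trend on expression level, with no gene-specific spread and no tissue difference between libraries. The rates may therefore be too high for low or more variable genes. Log2 CPM used a prior count of 2. Length was taken as counts over FPKM and depth, per listed transcript, for genes with at least 20 counts. Fits ran in R 4.3.3 with DESeq2 1.42.0, limma 3.58.1 and edgeR 4.0.16, and figures were drawn in Python 3.11.15 with matplotlib 3.10.9.

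The members, lists and alternatives were chosen with earlier results of these data known. Some genes of the lists are not reported here and were left out of their counts. Partner genes were named as up to the 4 of each list with the smallest unadjusted p under 0.05 against saline, or the 1 smallest where none was. Alike genes were the 2 with the highest Pearson's r. The same alternatives were run for the named partner genes and the count of members called, which was added after the data were seen. Promoter windows are from RefSeq, build GRCr8. Replicates are separate animals, 2 per dam.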

Additional observations from a re-analysis of the deposited data

Results flagged for a closer look

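In 7 of the 63 groups of 4 values examined for the members and the named partner genes, 1 library lay far from the other 3 relative to the range of the group, where chance gives about 1 in 20. Dnmt3a in PNO 2 was 8.88 CPM, above 7.23 to 7.39 CPM in the other PNO libraries. Dnmt3b in PNO 3 was 1.21 CPM, above 0.99 to 1.02 CPM. Tet2 in saline 4 was 9.04 CPM, below 12.3 to 12.7 CPM. Cdca7 in PNO 1 was 4.69 CPM, below 6.33 to 6.56 CPM, and Gadd45b in saline 4 was 18.6 CPM, above 13.4 to 13.8 CPM. In saline 1, Zbtb38 was 26.9 CPM, below 27.8 to 28.0 CPM, and Ncor1 was 74.6 CPM, above 69.0 to 69.8 CPM.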

How the results depend on the processing

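Under every alternative run, 0 members passed in the 3 comparisons. Of the log2 fold changes of members and named partner genes, 898 values under the alternatives kept their direction and 25 turned. No value passed the threshold in any fit, so this count reads direction alone and not size. Dnmt1 in PNO counts as kept, at 0.32 in the main fit and 0.051 with striatal and bulb scores as covariates. The cause of these changes was not tested. The number of genes called in PNO against saline was 117 with DESeq2, 11 with only the groups compared, 1 with limma on log2(FPKM + 0.5), 1 with a pseudocount of 0.1 and 1 with a pseudocount of 1, 3 without the 4 libraries with raised bulb markers, and 0 to 19 leaving out each library, with 19 without IUO 4 and 1 without saline 2. In IUO against saline it was 11 with DESeq2, 4 without the 4 libraries with raised striatal markers, 1 without those with raised bulb markers, and 0 to 1 leaving out each library, with 1 without saline 2 or IUO 2. In IUO against PNO it was 8 with DESeq2, 3 without the striatal set of 4 libraries, 3 without the bulb set, and 0 to 1 leaving out each library, with 1 without PNO 3 or IUO 2. Without the bulb set, PNO 2 is the lone PNO library, assumed to vary like the other groups.

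With striatal and bulb scores as covariates the log2 fold change in PNO turned to -0.0014 for Dnmt3a, -0.21 for Tet2, 0.12 for Mbd3 and -1.18 for Cdca7, and in IUO against saline to -0.094 for Dnmt1 and -0.38 for Dnmt3a. In PNO against saline these scores do not separate cleanly from exposure. With the length trend removed, Tet2 in PNO was -0.016 and Mbd3 0.00527. With the Y-linked mean as a covariate, Dnmt1 in PNO was 0.32 (SE 0.10) and Dnmt3a 0.61 (SE 0.26). Without the libraries with raised striatal markers, Mbd3 in PNO was 0.064. Dnmt3a and Tet3 in IUO against saline were then -0.35 and -0.20, and Mbd2 in IUO against PNO was 0.0050. Without that set, IUO keeps only IUO 3 and IUO 4. Without those with raised bulb markers, Dnmt1 in IUO against saline was -0.052.

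Leaving out each library, Tet2 in PNO ran from -0.012 to 0.15 and Mbd3 from -0.084 to 0.021. In IUO against saline the ranges were -0.037 to 0.13 for Dnmt1, -0.12 to 0.32 for Dnmt3a, -0.17 to 0.064 for Tet2, -0.12 to 0.032 for Mbd1, -0.046 to 0.071 for Mbd2 and -0.026 to 0.15 for Mbd3, and in IUO against PNO -0.53 to 0.039 for Tet3. Signs turned without saline 4 (Tet2 in PNO, Mbd1 in IUO), saline 2 or PNO 2 (Mbd3 in PNO), IUO 3 (Dnmt1), IUO 2 (Dnmt3a), saline 1 (Mbd2) and, in IUO against PNO, PNO 2 (Tet3). Without IUO 4 the signs of Tet2, Mbd1, Mbd2 and Mbd3 in IUO against saline turned. A mean FPKM of at least 2 left no value for Dnmt3a, Tet2 and Tet3. No label says that replicate numbers pair the animals. Same-numbered libraries had correlations of deviations from 0.015 to 0.41, all positive and 4 of 12 over 0.1, and 8 of 12 libraries were closest to their own number, which is seen in the data and not given by the design. The highest, 0.41, was between PNO 2 and IUO 2, which had the highest striatal means. The next, 0.24, was between PNO 3 and IUO 3, both with raised bulb genes. The part of tissue content in these correlations was not tested. With the replicate block 0 genes were called in each comparison, and Dnmt1 in PNO had a log2 fold change of 0.32. For Tet1 the CV of 57.0% in PNO and 68.9% in IUO exceeded the counting error of 16.8% and 18.3%, while for Dnmt3b counting error alone was 12.4% to 13.98%.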
